A study of Mus musculus with 5 samples.

Results

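The genes described here are 10 that encode enzymes, a chaperone and an enhancer protein acting on collagen after its translation: Lox, Loxl1, Loxl2, Loxl3, Plod1, Plod2, P4ha1, P4ha2, Serpinh1 and Pcolce. They were found by symbol, and all 10 were among the 27998 genes listed in each of the 5 count tables. The cells were sorted from mouse spinal cord for a Col1a1GFP reporter, in which the promoter of the type I collagen gene Col1a1 drives a fluorescent protein, and profiled by droplet single-cell RNA sequencing (10x Genomics v2). EAE 1 and EAE 2 are the 2 libraries of mice that had experimental autoimmune encephalomyelitis, a disease model in which immunity to myelin brings inflammation into the cord. Healthy 1, Healthy 2 and Healthy 3 are the 3 libraries of healthy mice. All groups carried the reporter on a C57/BL6 background. The labels give no stage of disease, age or number of mice, and none ties a library to animals of its own. The p-values here therefore rest on how much these libraries vary among themselves, which may be technical variation. EAE 1 is untitled as to number and was numbered by sample order.

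Fibrillar collagen is modified in several steps before it bears load. In the endoplasmic reticulum, prolyl 4-hydroxylases stabilise the triple helix, lysyl hydroxylases prepare sites for crosslinks, and the chaperone HSP47 (Serpinh1) holds the folded molecule. Outside the cell, proteases such as BMP1 remove the propeptides, helped by the enhancer protein Pcolce, and lysyl oxidases then oxidise lysines so that fibrils become covalently crosslinked. Fibroblasts of the meninges and of vessels are the main source of fibrillar collagen in the cord.

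In the first batch (EAE 1, Healthy 1 and Healthy 2, whose labels carry no sequencing lane) many cell barcodes occurred in more than 1 table. EAE 1 shared 1239 barcodes with Healthy 1 and 683 with Healthy 2, and Healthy 1 shared 996 with Healthy 2, while EAE 2 and Healthy 3, the second batch, shared 1. Each such barcode was kept where its UMI total was highest (UMIs are unique molecular identifiers, 1 for each RNA molecule caught), and its other records are called copies here. Copies were 67.6% of the barcodes of Healthy 1 and 61.2% of those of Healthy 2. Cells used numbered 1913 and 1238 in EAE 1 and EAE 2, with a median of 4562 and 5028 UMIs, and 724, 429 and 374 in Healthy 1 to 3, with a median of 1213, 3195 and 4273 UMIs. Healthy 1 was thus the shallowest library.

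Classes were set by UMIs of fixed markers. Cells with at least 3 UMIs of fibroblast markers (Dcn, Lum, Pdgfra, Fbln1, Islr, Serpinf1 and Slc6a13) and no other gate numbered 1367 and 883 in EAE 1 and EAE 2, and 656, 378 and 340 in Healthy 1 to 3. All 7 fibroblast markers were detected in each library, and their summed level was 13406 and 12670 CPM (UMIs per 1000000 UMIs summed over the gated cells of a library) in EAE, against 28269, 38760 and 30196 in Healthy. The gate markers themselves were thus lower in EAE, and their part in the results was not tested. A gate of 5 UMIs and a gate without Dcn gave the same member calls. Both draw on the same marker list, so they cannot decide this. Endothelial markers summed to 165 and 152 CPM in the same cells in EAE, against 93.1, 66.6 and 89.7 in Healthy, with Cldn5 at 0 in all but EAE 1. Arachnoid barrier markers summed to 104 and 115 CPM in EAE, against 25.9, 85.5 and 49.8 in Healthy, with Krt18 at 0 in all 5 libraries. The part of either list in the results was not tested. Immune markers summed to 8.59 and 6.79 CPM in EAE and to between 0.822 and 2.102 in Healthy. Haemoglobin genes differed between the EAE libraries, with 473 in EAE 1 and 1.97 in EAE 2, against 10.5 to 56.7 in Healthy.

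In fibroblast-gated cells, 3 of the 4 lysyl oxidase genes and the lysyl hydroxylase gene Plod2 were higher in EAE than in Healthy, and Pcolce was lower. Lox averaged 398 ± 108 CPM in EAE and 47.3 ± 16.4 in Healthy (SD, n = 2 and 3), and its fitted level was 3.00 log2 units higher. The genes of prolyl 4-hydroxylase subunits, Plod1 and the chaperone gene Serpinh1 did not pass the test. By edgeR's quasi-likelihood test with adjustment over all genes, 4 of the 10 members were called higher (Lox, Loxl1, Loxl2 and Plod2), where 8.72% of the 9764 genes tested were, and 1 was called lower (Pcolce), where 9.43% of the genes were. All 10 members passed the filter on low counts. The members were chosen with earlier results of these data known, so their shares beside those of all genes are a description. In 27.5% of the genes tested the lower EAE value exceeded the highest Healthy value, and in 17.8% the higher EAE value was under the lowest Healthy value, so a lack of overlap is common here and is given for members as a description. Their median log2 fold change was 0.49, and that of all genes tested was 0.00. All genes divided into 851 higher and 921 lower with TMM scaling, and into 1083 higher and 735 lower when library totals were used, a scaling under which Loxl3 was also called and the members called numbered 5 higher and 1 lower.

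**Figure D1:**
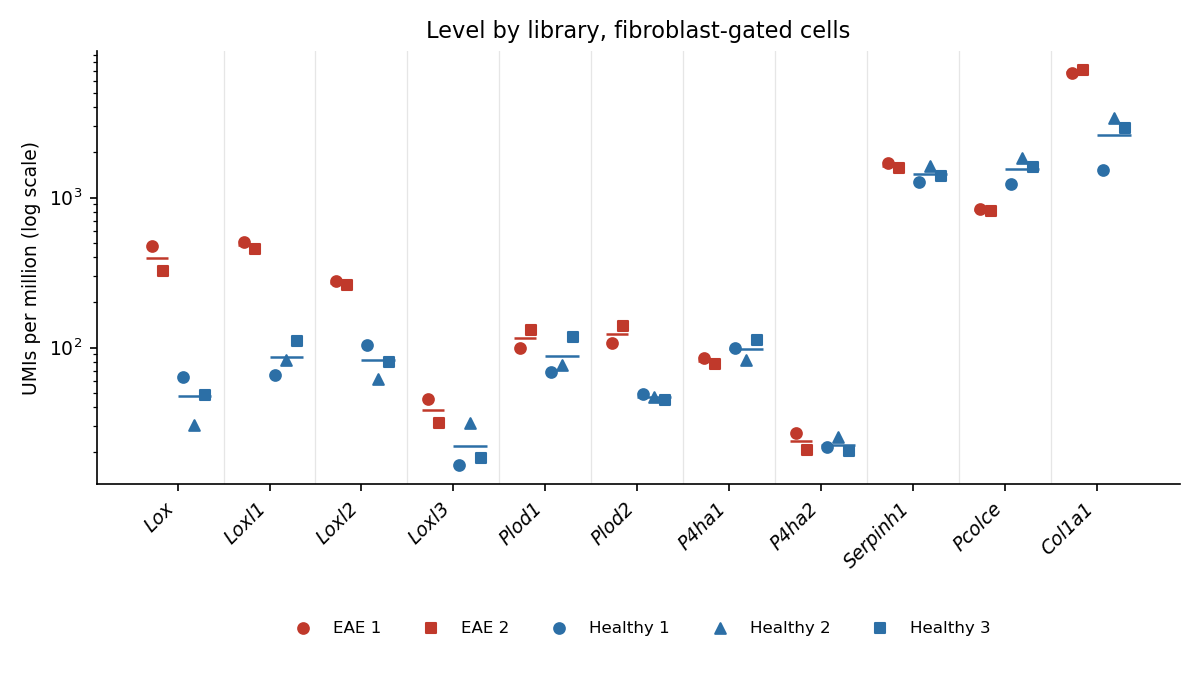
Level of each member and of Col1a1 in fibroblast-gated cells, in CPM on a log axis, with 1 point for each library and lines for group means (EAE red, Healthy blue). Both EAE libraries lie above all 3 Healthy libraries for Lox, Loxl1, Loxl2, Loxl3 (31.3 in EAE 2 against 31.2 in Healthy 2), Plod2 and Col1a1 and below them for Pcolce.

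Since 1 UMI stands for 1 molecule caught near its 3′ end, these levels are not scaled to gene length. Lox encodes lysyl oxidase, the enzyme that starts crosslinks in collagen and elastin. Its level was 475 in EAE 1 and 322 in EAE 2, against 63.1, 30.4 and 48.4 in Healthy 1 to 3. The lowest EAE library was above the highest Healthy library by several times, and the change passed the test (log2 fold change 3.00, SE 0.28, edgeR adjusted p = 9.7e-05). Within the batches the ratio of plain levels, EAE over Healthy, was 10.1 in the first and 6.66 in the second. With all barcodes as deposited the log2 fold change of Lox was 1.82 (edgeR adjusted p = 0.0104).

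Loxl1, an enzyme of the same family best known for maintaining elastic fibres, had 505 and 457 CPM in EAE, against 65.2, 82.2 and 111 in Healthy. The groups did not overlap, and the log2 fold change was 2.36 (SE 0.23, edgeR adjusted p = 6.664e-05). As deposited it was 1.56 (edgeR adjusted p = 0.0002439). Loxl2, which oxidises lysines of type IV collagen in basement membranes, had 278 and 262 in EAE and 105, 61.7 and 79.9 in Healthy. Here too both EAE libraries were above all Healthy libraries (log2 fold change 1.64, SE 0.23, edgeR adjusted p = 0.0006188). Loxl3 was the scarcest of the 4, with 45.7 and 31.3 in EAE against 16.6, 31.2 and 18.2 in Healthy. EAE 2 and Healthy 2 had nearly the same Loxl3 level, and the difference did not pass the test (log2 fold change 0.76, SE 0.27, edgeR adjusted p = 0.0773). Loxl3 passed under 4 of 17 alternatives, with log2 fold changes of 0.83 to 0.88.

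The lysyl hydroxylases divided. Plod2, which hydroxylates lysines in the telopeptides where crosslinks form, had 107 and 139 CPM in EAE, against 48.6, 46.9 and 44.8 in Healthy. The Healthy libraries lay close together and below both EAE libraries (log2 fold change 1.26, SE 0.22, edgeR adjusted p = 0.002076). Its call was lost without EAE 2 (log2 fold change 1.08, edgeR adjusted p = 0.0665) and without Healthy 3 (1.06, edgeR adjusted p = 0.0571). Plod1, which hydroxylates lysines of the helical part, had 99.0 and 131 in EAE, against 68.3, 76.5 and 117 in Healthy. Its groups overlapped, since Healthy 3 was above EAE 1, and the log2 fold change of 0.23 did not pass (SE 0.20, edgeR adjusted p = 0.487).

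**Figure D2:**
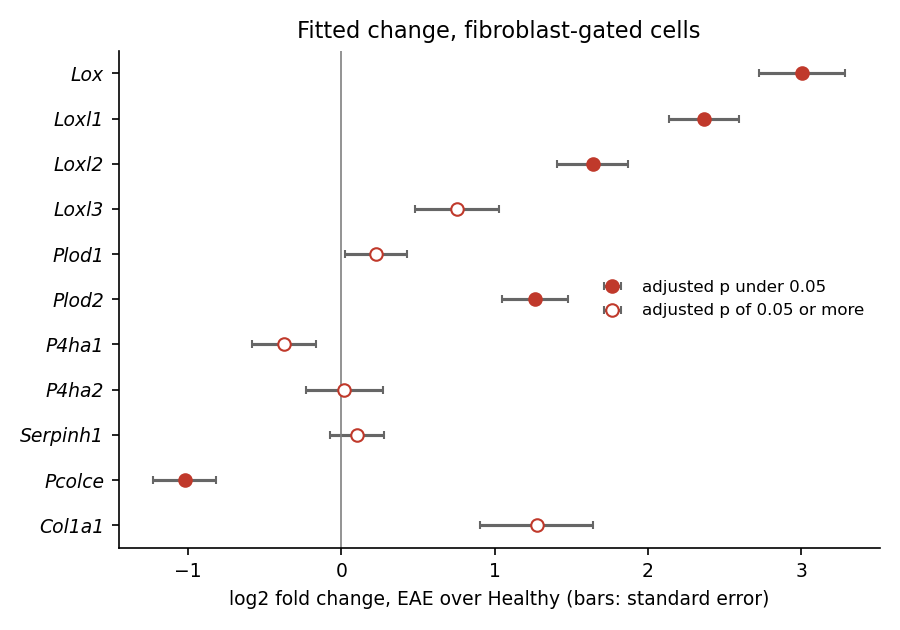
Log2 fold change of each member and Col1a1, EAE over Healthy, in fibroblast-gated cells, from edgeR with TMM scaling; bars are standard errors and filled points passed an adjusted p of 0.05. Lox has the highest value, 3.00, and Pcolce the lowest, -1.02.

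P4ha1 and P4ha2 encode alternative catalytic subunits of prolyl 4-hydroxylase. P4ha1 had 85.3 and 77.1 CPM in EAE, against 99.4, 82.2 and 111 in Healthy. Its groups overlapped (log2 fold change -0.37, SE 0.21, edgeR adjusted p = 0.257). P4ha2 had 27.0 and 20.6 in EAE, against 21.7, 25.5 and 20.3 in Healthy, also overlapping, with a log2 fold change near 0 (0.02 with SE 0.25, edgeR adjusted p = 0.971). Serpinh1 encodes HSP47, the collagen-specific chaperone, and was the most abundant member in EAE. It had 1700 and 1569 in EAE, against 1263, 1636 and 1400 in Healthy. The groups overlapped at Healthy 2, and the log2 fold change was 0.10 (SE 0.17, edgeR adjusted p = 0.744). Pcolce, whose product speeds removal of the C-terminal propeptide, had 836 and 810 in EAE, against 1226, 1835 and 1608 in Healthy. Both EAE libraries were below all Healthy libraries, and the log2 fold change of -1.02 passed (SE 0.20, edgeR adjusted p = 0.005362). The call of Pcolce was lost without EAE 1 (log2 fold change -1.07, edgeR adjusted p = 0.0750) and without EAE 2 (-0.96, edgeR adjusted p = 0.0777).

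The sum of the 10 members was 4158 and 3819 CPM in EAE, against 2976, 3908 and 3559 in Healthy, so the groups overlapped. Serpinh1 and Pcolce made up most of this sum in all 5 libraries. Their order turned, with Serpinh1 above Pcolce in both EAE libraries and in Healthy 1, and Pcolce above Serpinh1 in Healthy 2 and Healthy 3. In EAE the 3 called lysyl oxidase genes were each above Plod1, Plod2, P4ha1, P4ha2 and Loxl3, while in Healthy no such order held: Plod1 was above all 4 lysyl oxidase genes in Healthy 3, but Loxl2 was above it in Healthy 1 and Loxl1 in Healthy 2.

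Promoter sequences are given for members that fell or did not pass the test, since 5 of the 10 had an entry in the RefSeq promoter table used (GRCm38.p6, 250 bases before to 50 bases after the start that RefSeq gives). Of these, Pcolce is the member that fell, and Serpinh1, P4ha1, P4ha2 and Plod1, which did not pass the test, are printed for comparison. GENCODE M21 has its outermost start elsewhere for Pcolce, at 137613784, upstream of the window, and for P4ha2, at 54100095, also upstream, so these windows describe the RefSeq start only. The windows are on chr5:137611355-137611654 for Pcolce and on chr7:99353190-99353489 for Serpinh1, both on the minus strand, as is chr4:147936727-147937026 for Plod1. P4ha1 has chr10:59323046-59323345 and P4ha2 has chr11:54100674-54100973, both on the plus strand. Capitals mark ACGTG, the core of the hypoxia response element, and TATAAA, the TATA box, on either strand.
Pcolce: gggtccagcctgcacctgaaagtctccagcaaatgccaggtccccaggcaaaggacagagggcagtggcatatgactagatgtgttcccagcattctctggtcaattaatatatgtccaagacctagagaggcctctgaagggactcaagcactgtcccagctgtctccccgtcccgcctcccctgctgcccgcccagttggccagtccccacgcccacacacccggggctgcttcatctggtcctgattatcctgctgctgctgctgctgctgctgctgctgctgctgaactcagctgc
Serpinh1: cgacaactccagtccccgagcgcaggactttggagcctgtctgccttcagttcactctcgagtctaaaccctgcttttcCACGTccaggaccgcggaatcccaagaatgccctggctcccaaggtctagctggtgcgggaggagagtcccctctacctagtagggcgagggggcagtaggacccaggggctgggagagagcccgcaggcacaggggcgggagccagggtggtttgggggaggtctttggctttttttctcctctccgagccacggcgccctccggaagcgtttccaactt
P4ha1: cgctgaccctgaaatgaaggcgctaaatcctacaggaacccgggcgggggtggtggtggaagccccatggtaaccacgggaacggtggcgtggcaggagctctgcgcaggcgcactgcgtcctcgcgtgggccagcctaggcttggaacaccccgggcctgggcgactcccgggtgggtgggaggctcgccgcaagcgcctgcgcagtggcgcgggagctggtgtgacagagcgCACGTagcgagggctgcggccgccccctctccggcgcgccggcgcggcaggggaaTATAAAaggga
P4ha2: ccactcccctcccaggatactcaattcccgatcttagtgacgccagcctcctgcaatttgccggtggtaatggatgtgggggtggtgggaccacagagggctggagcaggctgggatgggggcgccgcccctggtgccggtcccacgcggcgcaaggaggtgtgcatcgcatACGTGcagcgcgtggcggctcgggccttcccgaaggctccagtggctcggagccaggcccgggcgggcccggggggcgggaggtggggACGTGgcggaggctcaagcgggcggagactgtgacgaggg
Plod1: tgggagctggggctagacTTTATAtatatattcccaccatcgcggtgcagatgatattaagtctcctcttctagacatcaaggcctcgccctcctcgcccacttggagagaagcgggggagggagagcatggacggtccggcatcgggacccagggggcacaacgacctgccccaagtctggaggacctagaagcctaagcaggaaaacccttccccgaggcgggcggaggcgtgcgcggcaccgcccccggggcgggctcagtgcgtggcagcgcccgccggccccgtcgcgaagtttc

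ACGTG occurred once in the windows of Serpinh1 and P4ha1, on the strand opposite to the gene, and 2 times in that of P4ha2, on the strand of the gene, and not in those of Pcolce and Plod1. TATAAA occurred in the window of P4ha1, past the start, and in that of Plod1, far before the start and on the opposite strand. The CCAAT box was not found in any of the 5 windows. Of 32851 promoter windows of this length, 19.6% held the hypoxia response core, 13.6% held the TATA box and 37.4% held the CCAAT box on either strand. The GC box GGGCGG, not capitalised, was found in all 5 windows and in 35.7% of all windows. A match is a description of the letters and not a site.

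Of 27 other genes of collagen processing, 19 passed the filter on low counts in fibroblast-gated cells, 2 were called higher and 4 lower, beside 8.72% and 9.43% of all genes tested. The share called higher was near that of all genes, and the share called lower was above it, on 4 genes. This list and that of hypoxia genes below were also chosen with earlier results of these data known. The median of the list's log2 fold changes was 0.20. The genes called higher were Bmp1 and P4hb. Bmp1, the protease that removes the C-terminal propeptide and also activates the Lox proenzyme, had 156 and 143 CPM in EAE, against 14.5, 18.9 and 10.5 in Healthy (log2 fold change 3.32, SE 0.25, edgeR adjusted p = 1.921e-05). Every EAE library was far above every Healthy library, but with all barcodes as deposited its adjusted p was 0.0755 (edgeR, log2 fold change 2.15). P4hb, the shared beta subunit of prolyl 4-hydroxylase, had 479 and 529 in EAE, against 250.5, 198 and 326 in Healthy (log2 fold change 0.83, edgeR adjusted p = 0.01414). Thus the beta subunit passed while the alpha subunit genes P4ha1 and P4ha2 did not; the difference between them was not tested.

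The genes called lower were P3h2, Fkbp14, P3h4 and Creb3l1. P3h2, a prolyl 3-hydroxylase, was at the edge of detection, with 0.603 and 1.10 in EAE against 8.28, 7.40 and 5.61 in Healthy (log2 fold change -3.13, edgeR adjusted p = 0.006299). Fkbp14, a prolyl isomerase of the endoplasmic reticulum, had 40.3 and 36.8 in EAE, against 75.6, 65.8 and 64.5 in Healthy (log2 fold change -0.91, edgeR adjusted p = 0.01313). P3h4, a partner of lysyl hydroxylase 1, had 62.4 and 48.0 in EAE, against 96.2, 83.9 and 91.1 in Healthy (log2 fold change -0.79, edgeR adjusted p = 0.02435). The states did not overlap for these 3 genes. Creb3l1, a transcription factor of the endoplasmic reticulum membrane, had 134 and 118 in EAE, against 196, 244 and 173 in Healthy. It was lower by the same test (log2 fold change -0.75, edgeR adjusted p = 0.02964) and is named because the list holds only 4 falls. P4hb, P3h2, Fkbp14, P3h4 and Creb3l1 each lost their call without EAE 1 and without EAE 2, and all but P3h2 also without Healthy 3. P3h4 and Creb3l1 also lost it with DESeq2 and with equal cells per library, and Creb3l1 with no batch term and without Healthy 2.

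Plod2, P4ha1, P4ha2 and Lox belong to genes that hypoxia is known to induce, so 12 other such genes were read beside them. Of these 11 were tested, and edgeR called 0 higher and 3 lower, beside 8.72% and 9.43% of all genes tested. On a list this short, 0 higher is near its share. The 3 lower are above their share, but on 3 genes only, and whether that exceeds chance was not tested. DESeq2 called 0 higher and 2 lower on this list, beside 518 higher and 547 lower of the 9764 genes tested. Adm, which encodes the vasodilator peptide adrenomedullin, had 62.1 and 70.5 CPM in EAE, against 183, 182 and 170 in Healthy (log2 fold change -1.53, edgeR adjusted p = 0.0004739). Ankrd37 had 5.88 and 11.6 in EAE, against 20.7, 18.1 and 42.0 in Healthy (log2 fold change -1.88, edgeR adjusted p = 0.0008443). Ddit4, an inhibitor of the mTORC1 kinase, had 88.9 and 71.8 in EAE, against 97.3, 125 and 170 in Healthy (log2 fold change -0.81, edgeR adjusted p = 0.04151), a call that 8 of 17 alternatives lost. The groups did not overlap for any of the 3. The other 8 did not pass: Vegfa, Slc2a1, Ldha and Pgk1 lay between -0.11 and 0.11, Ndrg1 was at -0.36, Bnip3 at -0.28, Higd1a at 0.39 and Egln1 at 0.42. Higd1a had 129 and 152 CPM in EAE, against 88.0, 89.6 and 113 in Healthy, without overlap, and in all sorted cells it was called higher (log2 fold change 0.70, edgeR adjusted p = 0.0433).

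Col1a1 itself had 6752 and 7048 CPM in EAE fibroblast-gated cells, against 1528, 3402 and 2925 in Healthy. Both EAE libraries were above all Healthy libraries, but the spread among the Healthy libraries was wide (log2 fold change 1.27, SE 0.37, edgeR adjusted p = 0.0888). DESeq2 gave 1.28 with an adjusted p of 0.004066, and 9 of 17 alternatives called Col1a1 higher. The cells were sorted on a reporter of this gene, so its level is also part of how they were chosen.

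Set beside Col1a1 in the same cells, the members divided in another way. Per 100 Col1a1 UMIs, Lox had 7.03 and 4.57 UMIs in EAE and 4.13, 0.894 and 1.65 in Healthy. Loxl1 had 7.49 and 6.49 in EAE and 4.27, 2.42 and 3.79 in Healthy. For both genes each EAE library was above each Healthy library, a lack of overlap that was not counted over all genes on this scale. The mean log2 ratios were higher by 1.63 for Lox and 1.04 for Loxl1. With all barcodes as deposited these were 0.62 and 0.45, and leaving out 1 library gave 1.12 (without Healthy 2) to 2.22 (without Healthy 1) for Lox and 0.79 (without Healthy 2) to 1.204 (without Healthy 1) for Loxl1.

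Loxl2 and Plod2 overlapped on this scale. Loxl2 had 4.12 and 3.72 per 100 Col1a1 UMIs in EAE, against 6.84, 1.81 and 2.73 in Healthy, and Plod2 had 1.58 and 1.97 in EAE, against 3.18, 1.38 and 1.53 in Healthy. Loxl3 also overlapped, with 0.677 and 0.444 in EAE and 1.08, 0.919 and 0.623 in Healthy. The remaining members were lower per Col1a1 UMI in both EAE libraries than in any Healthy library. Col1a1 itself averaged 6900 CPM in EAE and 2618 in Healthy, so a gene of unchanged level is lower on this scale. How many of all genes were lower on it was not counted. Serpinh1 had 25.2 and 22.3 in EAE, against 82.7, 48.1 and 47.9 in Healthy. Pcolce had 12.4 and 11.5 in EAE, against 80.3, 54.0 and 55.0 in Healthy, the largest difference among the members on this scale (log2 -2.38, and -1.88 with all barcodes as deposited). P4ha1 had 1.26 and 1.09 in EAE against 6.50, 2.42 and 3.81 in Healthy, and the log2 differences were -1.73 for P4ha1, -1.40 for P4ha2 and -1.05 for Plod1.

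**Figure D3:**
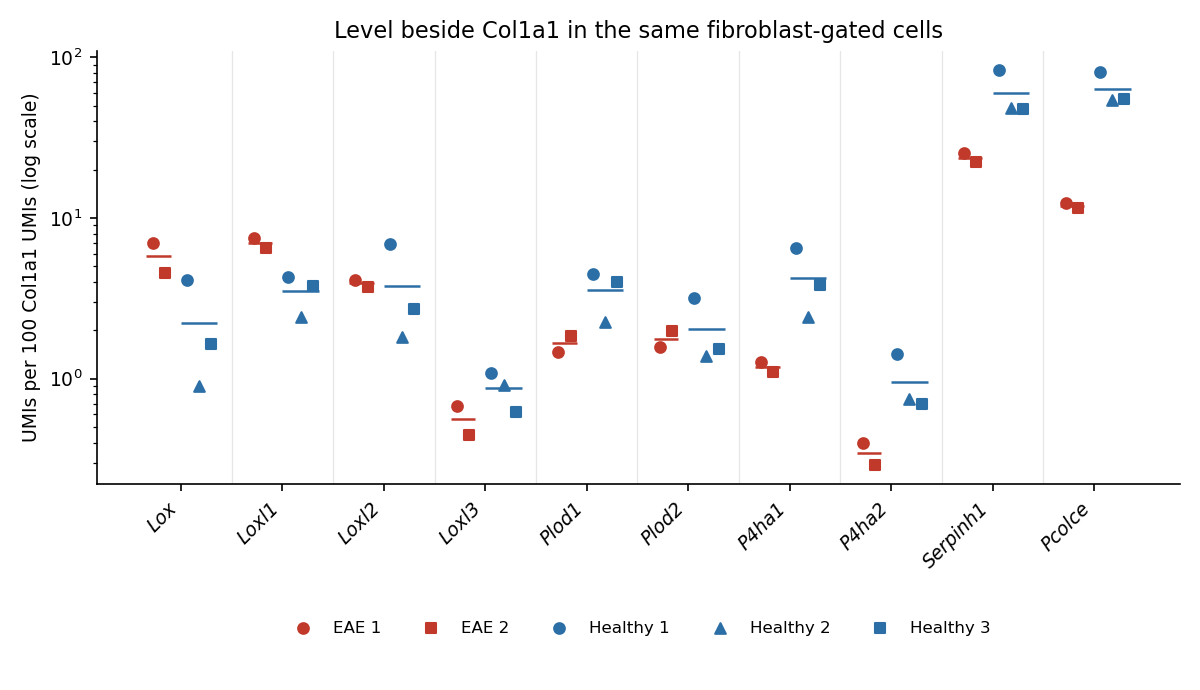
UMIs of each member per 100 Col1a1 UMIs in fibroblast-gated cells on a log axis, with 1 point for each library and lines for group means (EAE red, Healthy blue). Lox and Loxl1 are higher in both EAE libraries, while Plod1, P4ha1, P4ha2, Serpinh1 and Pcolce are lower in both. Col1a1, the divisor, was itself higher in both EAE libraries.

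The sum of the members was 61.6 and 54.2 per 100 Col1a1 UMIs in EAE, against 195, 115 and 122 in Healthy (log2 difference -1.27). With 2 libraries against 3 an exact two-sided permutation test cannot give a p under 0.2, which was reached by Lox, Loxl1, Plod1, P4ha1, P4ha2, Serpinh1, Pcolce and the sum (0.275 after adjustment over 11 values). For Loxl2, Loxl3 and Plod2 the exact p was 0.8, 0.4 and 1.0. Within the first and the second batch the log2 difference was 1.87 and 1.47 for Lox, 1.22 and 0.78 for Loxl1, -1.32 and -1.10 for Serpinh1, and -2.41 and -2.26 for Pcolce. The signs were thus alike in both batches for these genes, while that of Plod2 was -0.40 in the first and 0.36 in the second.

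Within a library, cells with more Col1a1 also had more of several members. How many of all genes follow Col1a1 in this way was not counted. Cells with at least 1000 UMIs were thinned to 1000 UMIs and divided at the library's median of Col1a1 UMIs. The thinned counts served only to divide the cells, and the levels and UMIs given are from their full counts. The division gave 601 high and 645 low cells in EAE 1 and 377 and 394 in EAE 2. In Healthy 1 to 3 it gave 171 and 107, 131 and 178, and 146 and 122. Lox, Loxl2, Plod2, Serpinh1 and the sum were higher in the Col1a1-high cells of all 5 libraries. For Lox, Serpinh1 and the sum this also held with cells divided after thinning to 2000 UMIs. It held too with the upper set against the lower of 3 Col1a1 ranges. Plod2 turned in Healthy 1 under both (log2 -0.38 and -0.07), and Loxl2 turned there with 3 ranges (-0.17), on 7 to 31 UMIs a side. Lox was 656 CPM in high and 278 in low cells of EAE 1, and 426 and 191 in those of EAE 2. In Healthy 1 to 3 the Lox levels were 93.3 and 18.5, 43.8 and 25.8, and 67.0 and 31.5, with 4, 15 and 17 UMIs behind the low cells. The mean log2 difference of Lox over the 5 libraries was 1.29 ± 0.58 (SD, n = 5, exact permutation p = 0.063, adjusted 0.138), the smallest p that 5 libraries allow. For Plod2 it was 1.08 ± 0.42, for Loxl2 0.88 ± 0.19 and for Serpinh1 0.52 ± 0.28, each with the same exact permutation p. For Plod2 the exact permutation p was 0.125 under both alternatives, and for Loxl2 it was 0.125 with 3 ranges. The difference for Col1a1, by which the cells were divided, was 1.85.

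**Figure D4:**
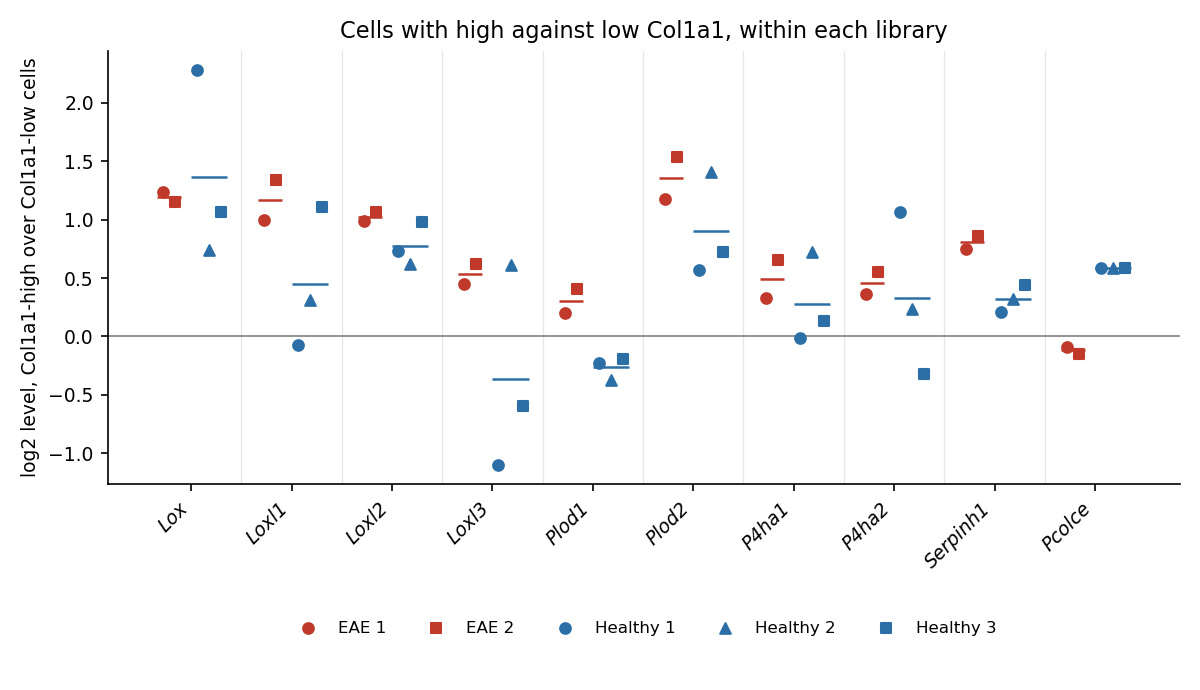
Log2 level of each member in Col1a1-high over Col1a1-low fibroblast-gated cells of the same library, with 1 point for each library and lines for group means (EAE red, Healthy blue). Lox, Loxl2, Plod2 and Serpinh1 are above 0 in all 5 libraries at this thinning and division, and Pcolce lies below 0 in EAE and at about 0.59 in Healthy.

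Pcolce and, less stably, Plod1 differed in sign between the states. For Pcolce the log2 difference between Col1a1-high and Col1a1-low cells was -0.09 and -0.15 in EAE 1 and EAE 2, against 0.59 in each of the Healthy libraries. For Plod1 it was 0.20 and 0.41 in EAE, against -0.22, -0.37 and -0.20 in Healthy. With cells divided after thinning to 2000 UMIs, Pcolce kept its signs, while the states overlapped for Plod1. Plod1 was then at 0.34 and 0.35 in EAE against 0.61, -0.67 and -0.22 in Healthy, the first Healthy value on 13 and 5 UMIs. An exact permutation of the states over libraries gave p = 0.2 for both, the smallest possible here (0.44 after adjustment). Loxl1 was higher in the high cells of 4 of 5 libraries, Healthy 1 being the exception with -0.08.

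Shares of cells with at least 1 UMI were also read. After thinning to 1000 UMIs, Lox was found in 27.7% and 20.1% of fibroblast-gated cells in EAE (95% Clopper-Pearson intervals 25.3 to 30.1 and 17.5 to 23.0) and in 4.53%, 1.95% and 6.04% in Healthy. These intervals cover counting error only. Thinning left out 259 of the 656 cells of Healthy 1, 19 of Healthy 2 and 9 of Healthy 3, against 0 and 44 in EAE 1 and EAE 2. Unthinned, the Lox shares were 60.4% and 51.2% in EAE, against 6.86%, 6.35% and 10.9% in Healthy. Loxl1 was found in 32.0% and 30.6% of thinned cells in EAE, against 6.05%, 7.52% and 7.86% in Healthy. Serpinh1 was found in 72.5% and 69.1% in EAE and in 68.0%, 73.8% and 72.8% in Healthy, which overlap. Immune-gated cells, which should lack lysyl oxidase, numbered 122 in EAE 1 and 22 in EAE 2, with a median of 3105.5 and 2366.5 UMIs, and 0 of them had a Lox UMI, thinned or not. That allows a share of cells with a Lox UMI of up to 2.46% in EAE 1 and 13.6% in EAE 2. It sets no limit on cells that express Lox, since a cell may hold its RNA and give no UMI.

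Mural-gated cells, the contractile and pericyte-type cells of vessel walls, were the other stromal class of the sort, with 38 and 14 cells in EAE and 26, 27 and 16 in Healthy. Col1a1 and Pcolce were far higher in fibroblast-gated than in mural-gated cells, while Lox did not pass the test. Col1a1 was 6752 and 7048 CPM in fibroblast-gated cells of EAE and 258 and 310 in mural-gated cells of EAE, and the log2 fold change of fibroblast-gated over mural-gated cells within libraries was 4.46 (SE 0.22). By edgeR with library as a block, 7 of the 10 members were called higher in fibroblast-gated cells, where 16.1% of 8669 genes were, and 0 were called lower, where 8.73% were. Pcolce had a log2 fold change of 2.65 (SE 0.23), Loxl1 2.90 (SE 0.38), P4ha1 1.83 (SE 0.43) and Serpinh1 1.66 (SE 0.20). Plod2 was at 1.22, Plod1 at 1.19 and Loxl2 at 1.05, calls that were lost with DESeq2 and with library totals for all 3. Plod2 also lost its call without EAE 1 (0.81, edgeR adjusted p = 0.258) and without Healthy 2 (1.18, edgeR adjusted p = 0.0668), and Loxl2 without EAE 2 (0.83, edgeR adjusted p = 0.0700) and with gates of 5 UMIs (0.65, edgeR adjusted p = 0.114). Loxl3 (0.92), Lox (-0.10, SE 1.05) and P4ha2 (-0.80) did not pass. The median log2 fold change of all genes was 0.25 with TMM scaling and -0.04 with library totals, and these values are to be read against that shift. With library totals 930 genes were higher and 986 lower, against 1395 and 757 with TMM.

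Within mural-gated cells no member was called in EAE. Lox had 220 and 19.4 CPM in EAE, against 407, 165 and 79.4 in Healthy, resting on 23 and 1 UMIs in EAE and 18, 15 and 5 in Healthy. The states overlapped widely. The members that passed the filter on low counts there were Lox, Serpinh1 and Pcolce, with log2 fold changes of -0.50, 0.46 and -0.83 (edgeR adjusted p = 0.995 for each). Of the 1153 genes tested 0 were called higher (0.0%) and 0 lower (0.0%) by edgeR, 66 had an unadjusted p under 0.05, and DESeq2 called 0 higher and 2 lower.

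By a test of that difference, the change of Lox in EAE differed between the classes. Its mural-gated side rests on the few Lox UMIs given above, whose level differed widely between the EAE libraries. Cells that passed both the fibroblast and the mural gate are in neither class. They numbered 48 and 36 in EAE, against 2, 8 and 4 in Healthy. Their part in this difference was not tested, and no alternative put all of them into the mural-gated class. The log2 change in fibroblast-gated cells minus that in mural-gated cells was 3.58 (SE 0.54, edgeR adjusted p = 5.169e-08), and Lox was the 1 member called, where 0.473% of 8669 genes were called higher and 0.311% lower. The difference stayed past the threshold in all 10 alternatives, between 2.098 with all barcodes as deposited (edgeR adjusted p = 0.01443) and 6.10 without EAE 1, where the mural-gated cells of EAE hold 1 Lox UMI. For Loxl1 the difference was 1.205 (SE 0.91), for Pcolce -0.31 (SE 0.43) and for Serpinh1 -0.40 (SE 0.35), and none passed.

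**Figure D5:**
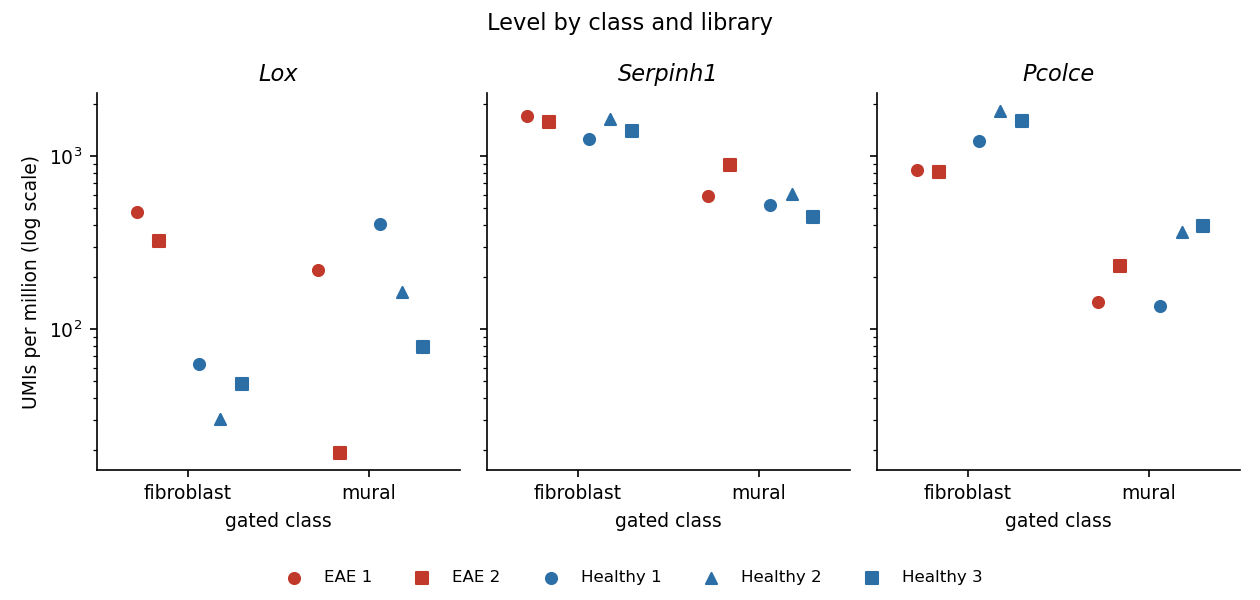
Level of Lox, Serpinh1 and Pcolce in fibroblast-gated and mural-gated cells, in CPM on a log axis, with 1 point for each library (EAE red, Healthy blue). Lox is higher in EAE in fibroblast-gated cells and overlaps between the states in mural-gated cells, where the lowest point rests on 1 UMI.

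Other gated classes were found mainly in EAE and are described without a test. In immune-gated cells of EAE 1 the members summed to 115 CPM and in those of EAE 2 to 96.3. P4ha1 made up 28 of the 51 member UMIs in EAE 1, a level of 63.3 CPM, and was seen in 22.1% of these cells before thinning and 4.92% after it. In EAE 2 it rested on 1 UMI of 7 (13.8 CPM, 4.55% of cells before thinning), too few to tell whether its level differed from that in EAE 1. The immune-gated cells of EAE 1 held 19 Col1a1 UMIs beside the 28 P4ha1 UMIs. Fibroblast-gated cells of EAE 1 had 1.26 P4ha1 UMIs per 100 Col1a1 UMIs. The source of P4ha1 UMIs in immune-gated cells was not tested. Melanocyte-gated cells were 39, all in EAE 1, and had 551 CPM of Serpinh1, 127 of Plod2, 125 of P4ha1 and 41.1 of P4ha2. Lox and Loxl1 were at 0 in them, which allows up to 5.13 CPM, and Col1a1 was at 1.71.

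Cells that passed several gates numbered 339 and 296 in EAE and 4, 13 and 16 in Healthy, of which 282 and 266 in EAE and 0, 4 and 11 in Healthy passed the fibroblast and endothelial gates. Lox had 438 and 339 CPM in them in EAE, close to the fibroblast-gated cells of the same libraries, while the Healthy ones rest on 5, 10 and 10 Lox UMIs. With these cells kept in, the same members were called, and the log2 fold change of Lox was 2.87. In the EAE cells passing these gates and no other, most endothelial marker UMIs were of Cdh5 (282 and 253 CPM) and Emcn (260 and 180). Kdr was at 2.21 and 0.478 CPM there, and Pecam1 at 4.98 and 34.4. Cdh5 was also found in fibroblast-gated cells, at 99.7 and 92.2 CPM in EAE and 65.2, 48.5 and 42.0 in Healthy. Whether the cells of several gates are doublets was not tested.

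In all sorted cells together the same 5 members were called: 4 higher, where 9.06% of 10224 genes were, and 1 lower, where 9.65% were. The log2 fold changes were 2.58 for Lox (SE 0.25), 2.29 for Loxl1, 1.64 for Loxl2, 1.25 for Plod2 and -1.14 for Pcolce (SE 0.20), each with an edgeR adjusted p of 0.003053 or less. Plod2 lost its call there without EAE 2 (1.03, edgeR adjusted p = 0.0650), without Healthy 3 (1.03, edgeR adjusted p = 0.0709) and with all barcodes as deposited (0.89, edgeR adjusted p = 0.0591). Immune markers summed to 376 and 85.7 CPM of these sums in EAE, against 19.0, 11.5 and 1.90 in Healthy. Melanocyte markers reached 724 CPM in EAE 1 and at most 1.24 elsewhere, and osteoblast markers 3827 CPM in Healthy 2, against 144 and 10.3 in EAE and 106 and 1.26 in Healthy 1 and Healthy 3. Their part in these values was not tested. The fibroblast-gated cells, described above, gave the same 5 calls, but they hold most UMIs of these sums, so the calls are not independent. In such sums fewer cells of a type and less RNA per cell cannot be told apart.

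Over 13 sums of cells by library and class (5 fibroblast-gated, 5 mural-gated, 2 immune-gated and 1 melanocyte-gated), the genes whose log2 level was most like the summed level of the members were Gjb2, P3h3, Phpt1, Npdc1 and Maged1, with Pearson's r of 0.97, 0.97, 0.97, 0.96 and 0.96. Gjb2 encodes a gap junction protein and P3h3 a protein of the lysyl hydroxylase complex. Col1a1 was at rank 419 of 3029 genes with r = 0.67. These sums share libraries, and most of the range comes from the difference between classes, so the values describe likeness only.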

How the data were processed

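UMI counts per gene and cell barcode, 1 table for each library, were deposited by the authors as raw counts. The submitters' processing notes name mm10, Seurat 3 and Cell Ranger 2.1.1; how cells were called and the strand setting are not given here. Of each barcode found in more than 1 of Healthy 1, Healthy 2 and EAE 1 the record with most UMIs was kept (0 ties). Cells needed 200 genes and at most 10% mitochondrial UMIs; doublets were not removed. Gates needed 3 UMIs of a list (10 for osteoblasts).

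Counts were summed per library and class of at least 10 cells. In R 4.3.3, edgeR 4.0.16 compared the sums with a robust quasi-likelihood F test on TMM-scaled libraries and terms for batch and state, after filterByExpr. P-values were Benjamini-Hochberg adjusted over all genes (threshold 0.05), and DESeq2 1.42.0 was an alternative. The code was tested on simulated data. SE was taken as |log2 fold change| divided by the root of F. Levels are over plain UMI sums and fold changes are TMM-scaled. The batches are the libraries with and without a lane in their labels. Exact permutation tests ran over libraries (scipy 1.17.1). Zero limits take 3 counts.

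The members and lists were chosen with earlier results of these data known. Named genes were the members and Col1a1, up to 3 rises and 3 falls with the largest change in each list, and the 5 genes most like the summed members. Creb3l1, a further fall, and the tested hypoxia genes that did not pass were named outside this rule to complete the lists. Promoter sequences are from RefSeq (GRCm38.p6) and were given for 5 members.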

Additional observations from a re-analysis of the deposited data

Results flagged for a closer look

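Lox is listed because its change in EAE differed between fibroblast-gated and mural-gated cells by a test of that difference (log2 3.58, edgeR adjusted p = 5.169e-08). The mural-gated side rests on few Lox UMIs and leaves out cells that also passed the fibroblast gate, most of them in EAE.

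Plod1 and Pcolce are listed because every EAE library went one way and every Healthy library the other when Col1a1-high cells were set against Col1a1-low cells. The mean log2 difference was 0.30 in EAE and -0.26 in Healthy for Plod1, and -0.12 in EAE and 0.59 in Healthy for Pcolce. With cells divided after thinning to 2000 UMIs this no longer held for Plod1, whose Healthy 1 value was 0.61, above 0.34 and 0.35 in EAE (exact permutation p = 0.6). It still held for Pcolce. The exact permutation test of the states gave p = 0.2 for both, the smallest that 2 and 3 libraries allow.

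The barcodes left out as copies are listed because they carried member UMIs outside the comparisons. In fibroblast-gated copies Lox had 359 CPM in Healthy 1 and 540.1 in Healthy 2, against 63.1 and 30.4 in the barcodes counted there. Loxl1 had 367 and 475 in the copies of Healthy 1 and Healthy 2, against 65.2 and 82.2 in the counted barcodes. These copies were 1260 and 593 cells. The Lox and Loxl1 levels of the copies lay nearer to those of EAE 1, 475 and 505, than the counted barcodes did; the reason was not tested.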

How the results depend on the processing

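Lox, Loxl1 and Loxl2 stayed called higher in fibroblast-gated cells under all 17 alternatives, with log2 fold changes of 1.82 to 3.28, 1.56 to 2.69 and 1.198 to 1.85. Plod2 lost its call in 2 of 17 and Pcolce in 2 of 17, all of them fits without 1 library. Members called higher ranged between 3 and 4 when 1 library was left out, and members called lower between 0 and 1. P4ha2 changed sign in 6 of 17 alternatives and was never called: -0.0168 with no batch term, -0.0378 as deposited, -0.1722 with equal cells per library, -0.0021 with a gate without Dcn, and -0.0583 to 0.1032 with 1 library left out.

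Per 100 Col1a1 UMIs, the log2 difference of the summed members stayed between -1.45 and -0.98. With all barcodes as deposited Lox moved to 0.62, Loxl1 to 0.45, Loxl3 to -0.21 and Pcolce to -1.88, and Pcolce was at -2.14 per 100 Col1a2 UMIs.

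Counts of called genes, higher and lower, moved most. In fibroblast-gated cells DESeq2 called 518 and 547, no filter on low counts gave 1458 higher, no batch term 607 lower, and leaving out 1 library gave 310 to 1296 higher and 309 to 1130 lower. In all sorted cells no filter gave 1812 higher, no batch term 607 higher, all barcodes as deposited 524 higher, and leaving out 1 library 378 to 1444 higher and 379 to 1178 lower. In mural-gated cells no filter gave 10 higher and 2 lower, DESeq2 2 lower, all barcodes 2 lower, and leaving out 1 library 0 to 11 higher and 0 to 5 lower. For the difference between classes DESeq2 called 24 higher and 8 lower (6555 adjusted p-values were not given), all barcodes gave 27 and 13, and leaving out 1 library 22 to 53 and 16 to 32. Between classes DESeq2 called 861 higher. The causes were not tested. Where a library is left out, a lone library of a state or batch is assumed to vary like the others, and with EAE 1, EAE 2 or Healthy 3 left out the states are compared within 1 batch.

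No paired analysis was possible because the labels number the libraries within a state and give EAE 1 no number. Healthy 1, with a median of 1213 UMIs, limits what can be seen of scarce members such as P4ha2 and Loxl3, which rest on 21 and 16 UMIs in its fibroblast-gated cells.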
